A study of Mus musculus with 24 samples.

Results

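Primary microcephaly can follow loss of any of a number of genes, and 10 of those that were not the targeted gene of the sequenced embryos were followed in *Cep135*-mutant mice: *Aspm*, *Wdr62*, *Mcph1*, *Cdk5rap2*, *Cit*, *Knl1*, *Ankle2*, *Zfp335*, *Phc1* and *Cenpe*. The paper also made mutants of *Aspm* and *Cdk5rap2*, which are not among these samples. They were chosen by symbol, as human microcephaly genes, from a table of 54658 genes, and each symbol had 1 row. RNA from 24 libraries was read at the 3′ ends of transcripts. The groups were dorsal telencephalon (cortex) of *Cep135*(Δ8/Δ8) mutants, labelled *Cep135* (-/-), and *Cep135*(+/+) controls, with 3 embryos of each genotype at E11.5 and 3 of each at E14.5, and cells of the same 6 E14.5 embryos grown for 12 or 24 hours towards neurospheres with EGF and FGF2. The allele is a germline deletion, no embryo received a drug, and each library came from 1 embryo. The E11.5 mutants are called A, B and C and their controls D, E and F, while the E14.5 mutants are 1, 2 and 6 and their controls 3, 4 and 5.

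Neurons of the cortex descend from apical progenitors, which divide at the ventricle and whose spindle, centrosome and chromosome segregation set how many further divisions a lineage can make. *Aspm*, *Wdr62* and *Cdk5rap2* encode proteins of the spindle pole and the pericentriolar material. *Knl1* and *Cenpe* act at the kinetochore, where chromosomes meet spindle microtubules, and *Cit* encodes citron kinase of the midbody, which completes the separation of daughter cells. *Mcph1* restrains chromosome condensation through condensin II and takes part in the DNA damage response. *Ankle2* serves the rebuilding of the nuclear envelope after mitosis, *Phc1* is a subunit of polycomb repressive complex 1 (PRC1), and *Zfp335* encodes a zinc-finger protein of an H3K4 methyltransferase complex.

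The table held read counts divided by 1 size factor per library, called normalized read counts here, so 1 gene can be compared between libraries but genes cannot be ranked against each other. The libraries held 4732781 to 11645213 reads on genes. Between 6.11% and 34.8% of the values fell on *Gm42418*, a ribosomal-RNA-like transcript, and 2 libraries of 12-hour cultures (mutant 6 and control 4) exceeded 30%. In the 24-hour cultures this share lay apart by genotype, at 20.5% to 23.0% in mutants and 6.26% to 13.9% in controls. Reads did too, at 7903426 to 11645213 in mutants and 4732781 to 5709443 in controls. Genotype at 24 hours therefore cannot be told apart from share or depth. Embryos A, C, E, 1 and 2 were female by *Xist* and Y-linked transcripts and the others male, so all E14.5 controls were male. For the cortex of mutant 6 the labels disagree on age, and the title and source, which say E14.5, were followed. The summed value of 9 neuronal markers was 30674 to 33161 in the E14.5 mutant cortices, mutant 6 among them. It was 9012 to 13462 in the E11.5 cortices. Although the labels call the samples cortical neural progenitors, the cortices also held transcripts of neurons, blood, microglia and endothelium. *Cep135*, the targeted gene, lay between 170.6 and 375.5 in all libraries, with overlapping genotypes at each stage. Its 3′ reads lie outside the deleted bases, so they report the amount of transcript and cannot check the deletion. In such bulk samples fewer cells of a type and less RNA per cell cannot be told apart.

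All 10 genes had reads in every library and passed the filter of a mean of at least 10 in each comparison. The genes lie on 8 chromosomes (GENCODE vM21, build GRCm38). *Aspm* occupies chr1:139454772-139494091 on the plus strand, *Knl1* chr2:119047119-119105501 on the plus strand and *Zfp335* chr2:164891882-164911757 on the minus strand. *Cenpe* lies at chr3:135212537-135273611 on the plus strand, *Cdk5rap2* at chr4:70216856-70410443 and *Phc1* at chr6:122317731-122340561, both on the minus strand. *Wdr62* lies at chr7:30240138-30280419 on the minus strand and *Mcph1* at chr8:18595131-18803189 on the plus strand. *Ankle2* (chr5:110231004-110256651) and *Cit* (chr5:115845278-116008947) share the chromosome of *Cep135*, at distances of 33.6 and 39.2 megabases. Reads were counted by strand. A gene on the same strand overlapped only *Cdk5rap2* (the pseudogene *Ywhaq-ps3*) and *Cit* (*Gm42471* and *Gm42473*), in each case away from the 3′ end.

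Promoters are shown because 8 of the 10 genes moved the same way with age and the other two did not. RefSeq starts (GRCm38.p6, 250 bases before to 50 after the start) matched 9 of the 10 genes. The search covered both strands for TTTGAA, the core of the cell cycle homology region, CCAAT, the core of the NF-Y box, and GCGGGAA, an E2F-type site, and no matches overlapped each other. Capitals mark matches on either strand. The first 5 sequences are those that held a match, and all belong to genes that fell between E11.5 and E14.5. *Cit* and *Ankle2* also fell, held no match and are not shown. *Phc1* is shown as a gene that did not fall, and it held no match either. The choice of sequences therefore sets no contrast between genes that fell and genes that did not.
Aspm: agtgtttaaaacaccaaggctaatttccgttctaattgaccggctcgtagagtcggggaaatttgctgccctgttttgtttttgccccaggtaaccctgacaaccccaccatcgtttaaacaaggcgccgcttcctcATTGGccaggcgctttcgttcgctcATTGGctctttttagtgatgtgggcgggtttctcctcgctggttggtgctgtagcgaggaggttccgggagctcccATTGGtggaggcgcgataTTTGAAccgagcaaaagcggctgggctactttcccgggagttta
Cenpe: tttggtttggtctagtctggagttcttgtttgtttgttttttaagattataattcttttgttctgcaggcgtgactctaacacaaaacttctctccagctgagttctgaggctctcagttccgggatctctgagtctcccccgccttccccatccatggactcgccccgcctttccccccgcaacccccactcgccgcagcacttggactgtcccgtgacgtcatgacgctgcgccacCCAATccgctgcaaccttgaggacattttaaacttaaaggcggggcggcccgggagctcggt
Knl1: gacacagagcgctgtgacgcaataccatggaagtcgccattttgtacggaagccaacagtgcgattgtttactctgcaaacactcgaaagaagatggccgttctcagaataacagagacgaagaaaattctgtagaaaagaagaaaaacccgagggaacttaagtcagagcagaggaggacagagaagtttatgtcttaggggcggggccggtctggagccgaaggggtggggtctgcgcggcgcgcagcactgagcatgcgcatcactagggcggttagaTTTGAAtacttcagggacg
Cdk5rap2: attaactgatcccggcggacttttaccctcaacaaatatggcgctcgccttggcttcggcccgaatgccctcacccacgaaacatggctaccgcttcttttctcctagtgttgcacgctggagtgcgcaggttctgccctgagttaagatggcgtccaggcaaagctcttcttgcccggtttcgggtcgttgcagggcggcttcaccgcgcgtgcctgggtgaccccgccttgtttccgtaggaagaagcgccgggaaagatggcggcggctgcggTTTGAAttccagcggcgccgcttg
Wdr62: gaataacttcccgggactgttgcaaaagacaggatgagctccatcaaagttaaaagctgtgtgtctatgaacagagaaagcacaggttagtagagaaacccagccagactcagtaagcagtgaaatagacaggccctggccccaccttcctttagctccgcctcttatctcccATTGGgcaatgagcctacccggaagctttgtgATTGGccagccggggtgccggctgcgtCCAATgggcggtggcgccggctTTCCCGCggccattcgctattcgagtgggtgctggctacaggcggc
Phc1: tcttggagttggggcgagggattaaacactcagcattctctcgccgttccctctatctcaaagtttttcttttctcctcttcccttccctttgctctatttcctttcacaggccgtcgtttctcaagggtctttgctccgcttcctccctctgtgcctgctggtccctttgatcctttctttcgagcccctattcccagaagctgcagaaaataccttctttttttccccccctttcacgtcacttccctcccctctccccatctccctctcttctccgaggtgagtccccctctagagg
These windows are chr1:139454523-139454822 (*Aspm*), chr3:135212313-135212612 (*Cenpe*), chr2:119046869-119047168 (*Knl1*), chr4:70410386-70410685 (*Cdk5rap2*), chr7:30280372-30280671 (*Wdr62*, the first of 2 listed starts) and chr6:122340178-122340477 (*Phc1*), read 5′ to 3′ on the strand of each gene.

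TTTGAA was found in 3 of the 9 promoters, starting 6 bases after the start in *Aspm*, 26 in *Cdk5rap2* and 31 in *Knl1*, against 17.9% of all 32851 promoters in the table. CCAAT occurred in *Aspm* at 3 places (113, 88 and 12 bases before the start), in *Wdr62* at 3 places (77, 45 and 18 bases before) and in *Cenpe* 12 bases before the start, so in 3 of 9, against 37.4% of all promoters. GCGGGAA occurred in *Wdr62* alone, 4 bases after the start, and in 4.6% of all promoters. *Cit*, *Ankle2*, *Zfp335* and *Phc1* held none of the 3 words. Among the 16 matched genes of a list of 20 genes of G2 and mitosis, 13 held TTTGAA and 14 CCAAT. These counts are by gene, at any of its listed starts, whereas the percentages are over single promoters. A match describes the letters in this window and was not tested as a binding site.

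**Figure D1:**
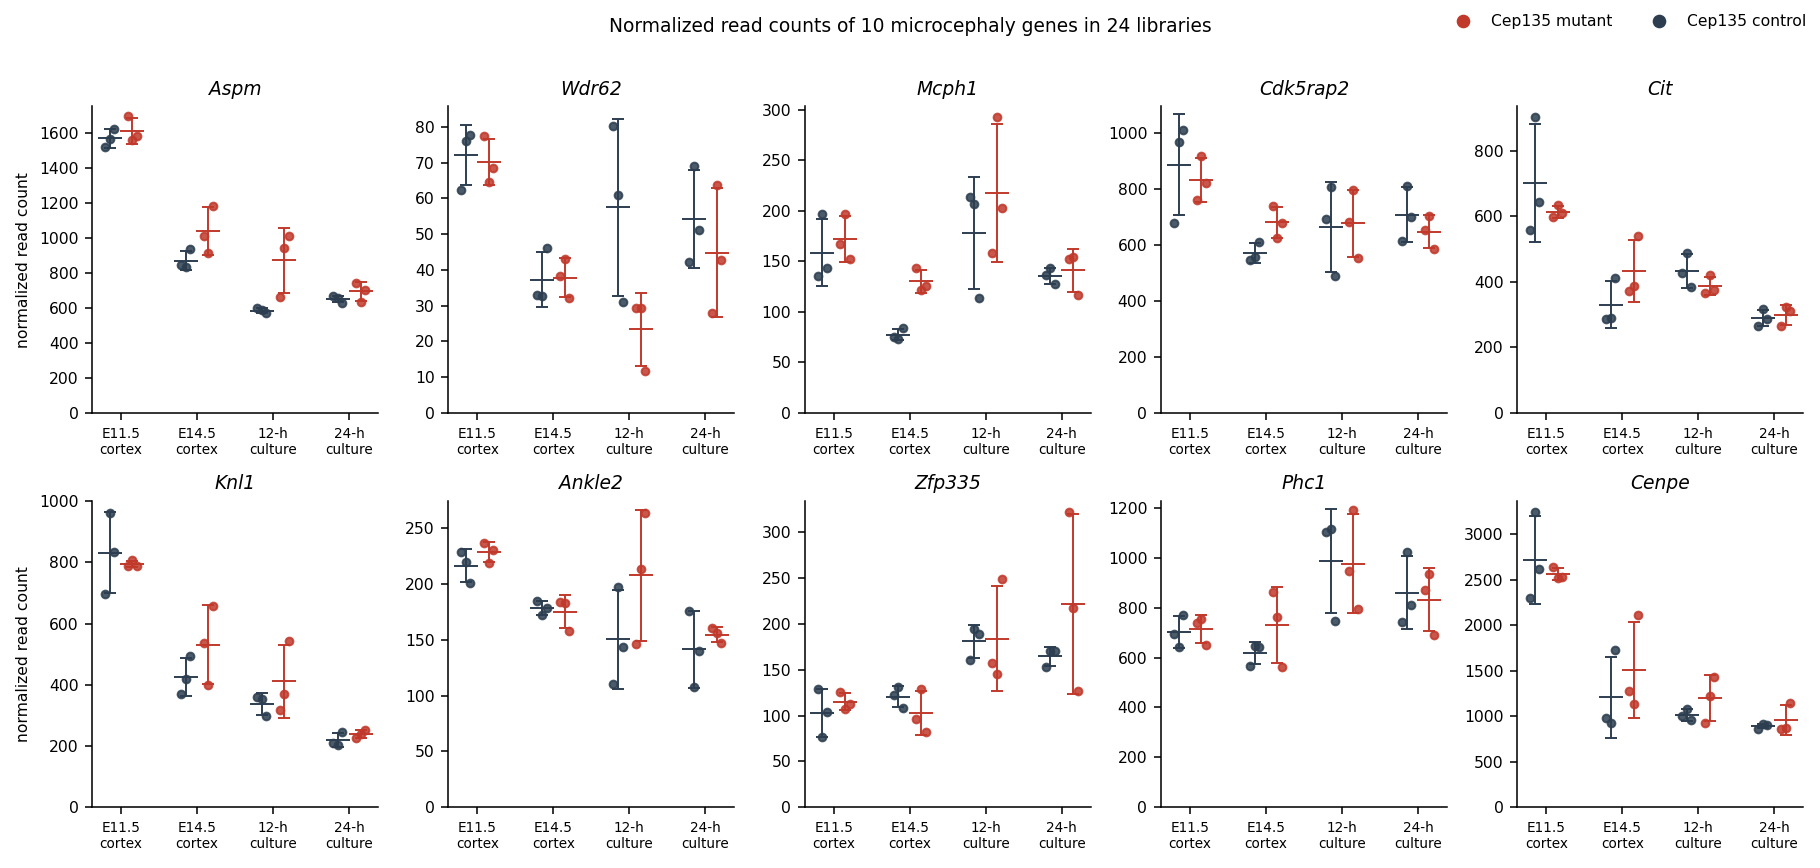
Normalized read count (vertical axis, from 0) of each of the 10 genes at 4 stages, with 3 embryos per group as points, bars for mean ± SD, mutants in red and controls in dark blue. *Aspm*, *Cenpe* and *Knl1* stand highest in the E11.5 cortices of both genotypes, and *Zfp335* and *Phc1* do not.

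Between E11.5 and E14.5, with genotype as a term, 8 of the 10 genes were lower in the older cortices and 0 were higher (limma, adjusted p under 0.05), where 29.3% of all 13650 genes tested were lower and 23.8% higher. *Cenpe* fell to 0.495 of its E11.5 level, *Wdr62* to 0.531, *Cit* to 0.575, *Knl1* to 0.581, *Aspm* to 0.596, *Mcph1* to 0.614, *Cdk5rap2* to 0.731 and *Ankle2* to 0.795, as folds on the scale of the normalized count plus 1. The median log2 fold change of the 10 genes was -0.72 and that of all genes tested -0.077. In 6 of the genes the 6 older cortices all lay below the 6 younger ones, which 14.9% of all genes tested did.

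At the spindle pole, *Aspm*, whose protein gathers at microtubule minus ends, had 1697, 1560 and 1581 in the E11.5 mutants, 1519, 1566 and 1626 in their controls, 1014, 915.3 and 1185 in the E14.5 mutants and 844.7, 832.6 and 934.6 in the E14.5 controls. No E14.5 cortex reached the lowest E11.5 value, and the log2 fold change was -0.75 (SE 0.081, limma adjusted p = 1.22e-06). *Wdr62*, a scaffold of the mitotic spindle pole, went from 62.5 to 77.7 at E11.5 down to 32.1 to 46.2 at E14.5, again without overlap (log2 fold change -0.91, SE 0.14, limma adjusted p = 6.41e-05). *Cdk5rap2*, which anchors γ-tubulin complexes at the centrosome, ran from 679.2 to 1010 at E11.5 and from 547.0 to 738.5 at E14.5. Its 2 ranges overlapped and its decrease was smaller (log2 fold change -0.45, SE 0.11, limma adjusted p = 0.00217).

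At the kinetochore, *Cenpe*, a motor that moves chromosomes to the spindle equator, had 2636, 2523 and 2530 in the E11.5 mutants and 2297, 3246 and 2618 in their controls, against 1275, 1137 and 2109 in the E14.5 mutants and 977.6, 930.6 and 1724 in the E14.5 controls. Mutant 6 and control 5 stood above the other 4 older cortices, though below every E11.5 cortex (log2 fold change -1.02, SE 0.17, limma adjusted p = 0.000104). *Knl1*, the platform on which checkpoint proteins assemble, ran from 696.3 to 960.9 and then from 369.4 to 658.5, with mutant 6 again highest of the older cortices (log2 fold change -0.78, SE 0.13, limma adjusted p = 7.08e-05). *Cit* of the midbody ran from 558.3 to 904.0 and then from 288.2 to 541.1, also without overlap (log2 fold change -0.80, SE 0.15, limma adjusted p = 0.000287).

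*Mcph1* had 167.7, 197.4 and 152.2 in the E11.5 mutants and 136.0, 197.4 and 143.0 in their controls, against 143.4, 121.4 and 126.1 in the E14.5 mutants and 75.3, 73.3 and 83.7 in the E14.5 controls (log2 fold change -0.70, SE 0.14, limma adjusted p = 0.000529). The older controls lay far below the younger ones, while mutant 1 reached into the E11.5 range. *Ankle2* ran from 200.5 to 236.7 at E11.5 and from 158.2 to 184.7 at E14.5, without overlap (log2 fold change -0.33, SE 0.087, limma adjusted p = 0.00452). For each of these 8 genes the exact permutation test within genotype gave 0.005, the smallest p it can give.

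*Zfp335* ran from 76.1 to 129.0 at E11.5 and from 82.2 to 130.7 at E14.5, and *Phc1* from 643.1 to 770.3 and from 562.2 to 861.5. The ranges overlapped almost wholly, with log2 fold changes of 0.032 (95% interval -0.29 to 0.36, limma adjusted p = 0.874) and -0.086 (95% interval -0.30 to 0.13, limma adjusted p = 0.509). Decreases of the size seen in *Aspm* or *Cenpe* lie outside both intervals.

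**Figure D2:**
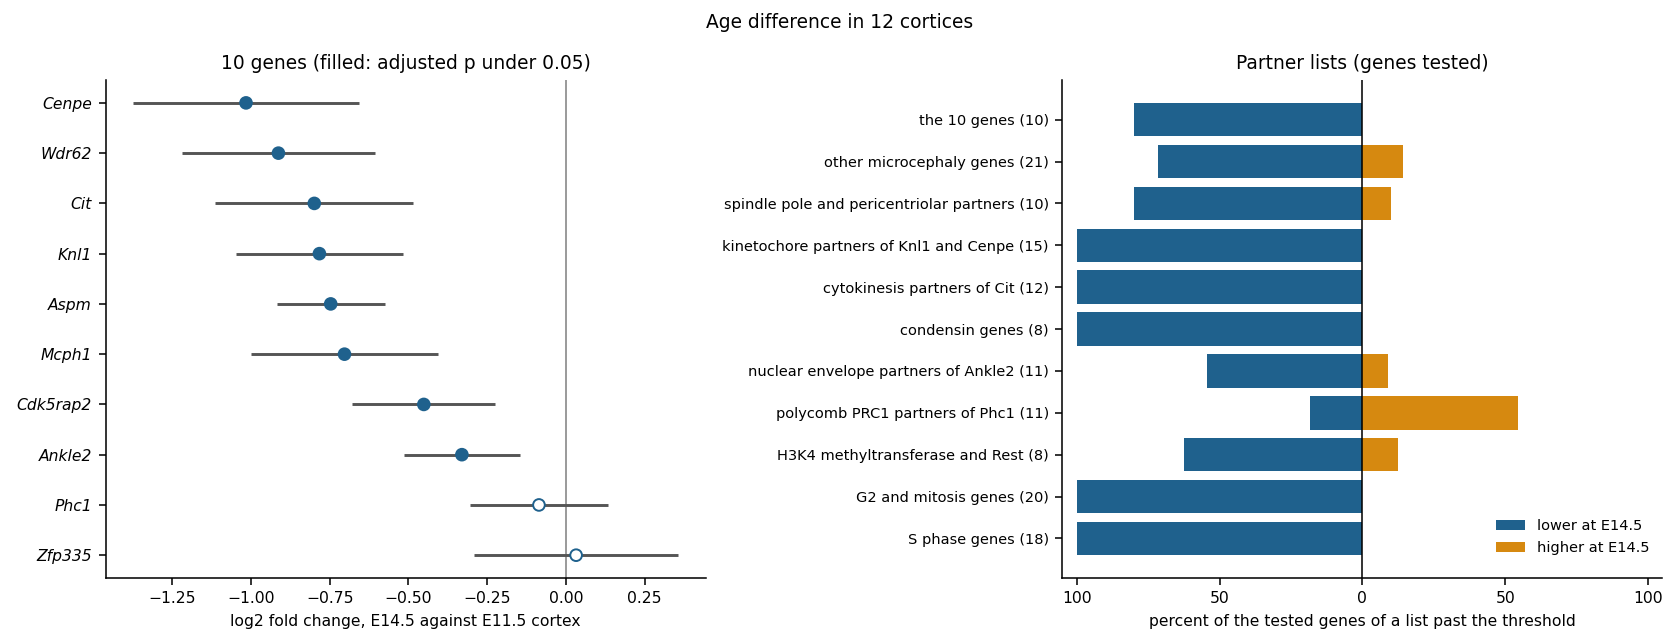
Left, log2 fold change of each gene in 6 E14.5 against 6 E11.5 cortices with its 95% confidence interval (limma, genotype as a term). Right, percent of the tested genes of each list past the threshold in either direction, where kinetochore, cytokinesis, condensin, G2 and S phase genes were all lower and 6 of 11 PRC1 genes were higher.

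The partners of each protein were counted from lists. All 15 kinetochore genes were lower at E14.5, led by the checkpoint kinase *Bub1* (log2 fold change -1.23, SE 0.11), *Mad2l1* (-1.21, SE 0.12) and *Nuf2* (-1.05, SE 0.10). All 12 cytokinesis genes fell, with *Kif23* of the central spindle at -1.33 (SE 0.13) and *Cdca8* of the chromosomal passenger complex at -1.12 (SE 0.094). All 8 condensin genes fell, among them *Ncaph* (-1.11, SE 0.12) and *Ncapg* (-0.98, SE 0.10) of condensin I. Of 10 spindle pole genes 8 were lower, such as *Plk1* (-1.23, SE 0.11) and *Aurka* (-1.19, SE 0.12), and *Akap9*, a scaffold of centrosome and Golgi, was higher (0.92, SE 0.12).

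The partners of the other members were less uniform. Of 11 nuclear envelope genes 6 were lower, led by *Tmpo* (-0.74, SE 0.10), and *Lemd2* was higher (0.30, SE 0.10). In the H3K4 methyltransferase list, 5 of 8 fell, among them *Rest* (-0.95, SE 0.18), the repressor of neuronal genes, and *Kmt2a* rose (0.32, SE 0.10). Of 11 PRC1 genes tested 6 were higher and 2 lower, with *Cbx8* at 0.76 (SE 0.14), *Cbx2* at -1.25 (SE 0.080) and the ubiquitin ligase *Ring1* at -0.56 (SE 0.20), while *Phc1*'s paralog *Phc3* was at 0.45 (SE 0.16). Among 21 further human microcephaly genes 15 were lower, such as *Ncapd2* (-0.77, SE 0.084) and the centriole gene *Sass6* (-0.63, SE 0.086), and 3 were higher, *Cdk6* (0.41), *Wdfy3* (0.27) and *Trappc14*, listed as *BC037034* (0.53).

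Genes of the cell cycle and of cell types moved with age as well. All 20 genes of G2 and mitosis were lower, and their summed value went from between 32923 and 37003 at E11.5 to between 16530 and 25257 at E14.5. All 18 S phase genes were lower. The 9 neuronal markers were all higher, with sums of 9012 to 13462 and then 30674 to 43088. Of 9 apical progenitor markers 7 were called lower and 2 higher. The part of these differences in the values of the 8 genes was not tested. Every E14.5 library carries 1 sample code prefix that no E11.5 library has, so age and this prefix cannot be told apart. With the E11.5 cortices of prefix TBI189 alone (A and D), 7 of the 10 genes remained lower, *Cdk5rap2* being the exception (log2 fold change -0.21, limma adjusted p = 0.198), and without A and D all 8 did. The titles give the other 4 E11.5 cortices the prefix TC48, but the descriptions and the table name mutants B and C with TL48. If TL48 holds, B and C share no prefix with controls E and F, and prefix and genotype cannot be told apart among these 4.

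Whether loss of *Cep135* changes the other microcephaly genes was asked at each stage. In none of E11.5 cortices, E14.5 cortices, 12-hour and 24-hour cultures did any of the 10 genes pass the test (limma, 0 of 10 in each, where 0.0149%, 0.0736%, 0% and 0.271% of all genes were called), nor over the 12 cortices with age as a term (0 of 10, where 0.139% were called). EdgeR and DESeq2 on whole reads also called 0 of the 10 in each. At 24 hours 36 of all genes were called, and 0 with a term for the *Gm42418* share, which lay apart by genotype there. At an unadjusted p under 0.05 it was 1 of 10 over the 12 cortices, *Mcph1*, where 8.71% of all genes reached it. At the single stages these numbers were 0, 1, 2 and 0, where 7.39%, 9.1%, 4.85% and 10.6% of all genes reached it. At E11.5 the log2 fold changes of the 10 genes lay between -0.16 and 0.19, and their 95% intervals between -0.52 and 0.64.

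At E14.5 the mutants were above the controls in the mean of 8 of the 10 genes, with a median log2 fold change of 0.25 against 0.013 for all genes, and no single gene passed. *Mcph1* was the nearest to the threshold. As given above, its 3 mutants (121.4 to 143.4) lay above its 3 controls (73.3 to 83.7), at 130 ± 11.6 against 77.4 ± 5.51 (mean ± SD, n = 3 each), a fold of 1.67. The log2 fold change was 0.74 (SE 0.17, 95% interval 0.36 to 1.12) with a limma adjusted p of 0.282 over all genes and an exact permutation p of 0.1, the smallest that 3 against 3 allows. Over all alternatives and left-out libraries it lay between 0.67 and 0.80, with adjusted p from 0.075 to 0.999.

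*Mcph1* was not separated by genotype elsewhere. Its log2 fold change was 0.13 (SE 0.18) at E11.5, 0.30 (SE 0.31) at 12 hours and 0.049 (SE 0.20) at 24 hours, with overlapping groups at all 3. Over the 12 cortices it was 0.44 (SE 0.14, limma adjusted p = 0.373, exact permutation p = 0.025 within age). The genotype difference was larger at E14.5 than at E11.5 by 0.61 on the log2 scale (95% interval 0.10 to 1.12), which did not pass (limma adjusted p = 0.62).

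*Cdk5rap2* was the other gene whose E14.5 groups did not overlap, with 738.5, 626.0 and 678.1 in mutants and 547.0, 556.7 and 611.1 in controls (log2 fold change 0.25, SE 0.13, limma adjusted p = 0.577). So 2 of the 10 genes had separate groups, where 13.7% of all genes did. *Cit* was at 371.5, 387.5 and 541.1 in mutants and 288.2, 291.1 and 412.4 in controls, overlapping through control 5 (log2 fold change 0.39, SE 0.19, limma adjusted p = 0.565). *Cenpe* (0.32, SE 0.26), *Knl1* (0.30, SE 0.19) and *Aspm* (0.25, SE 0.13) overlapped too, and the mean of *Zfp335* was lower in mutants (-0.25, SE 0.20). These values depended on single libraries. Leaving out any 1 library gave 0.051 to 0.61 for *Cenpe*, 0.13 to 0.49 for *Knl1*, 0.22 to 0.56 for *Cit*, 0.15 to 0.33 for *Aspm* and -0.43 to -0.11 for *Zfp335*. With all controls male and mutant 6 the only male mutant, a term for sex left mutant 6 alone against the controls. It gave 0.86, 0.63, 0.73, 0.45 and -0.54 in the same order.

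Several sums of other transcripts also lay apart by genotype in the same 6 cortices. The sum of the 9 neuronal markers was 30674 to 33161 in mutants and 40296 to 43088 in controls, that of the 18 S phase genes 8727 to 8901 and 6558 to 6944, and that of the 20 genes of G2 and mitosis 20040 to 25257 and 16530 to 19680. The 6 microglia markers summed to 760.3 to 941.7 in mutants and 409.4 to 464.7 in controls, with no marker at 0. The 12 p53 target genes summed to 2600 to 2765 in mutants and 1940 to 2094 in controls. The sums of the 8 liver transcripts overlapped, at 6.26 to 13.5 in mutants, with a lowest value of 10.6 and a median of 858.7 in controls. Of these 8 genes 4 were at 0 in the mutants and 1 in the controls. The 9 apical progenitor markers summed to 10093 to 11686 in mutants and 9667 to 10340 in controls, with overlap. The part of these shifts in the values of *Mcph1* and *Cdk5rap2* was not tested.

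**Figure D3:**
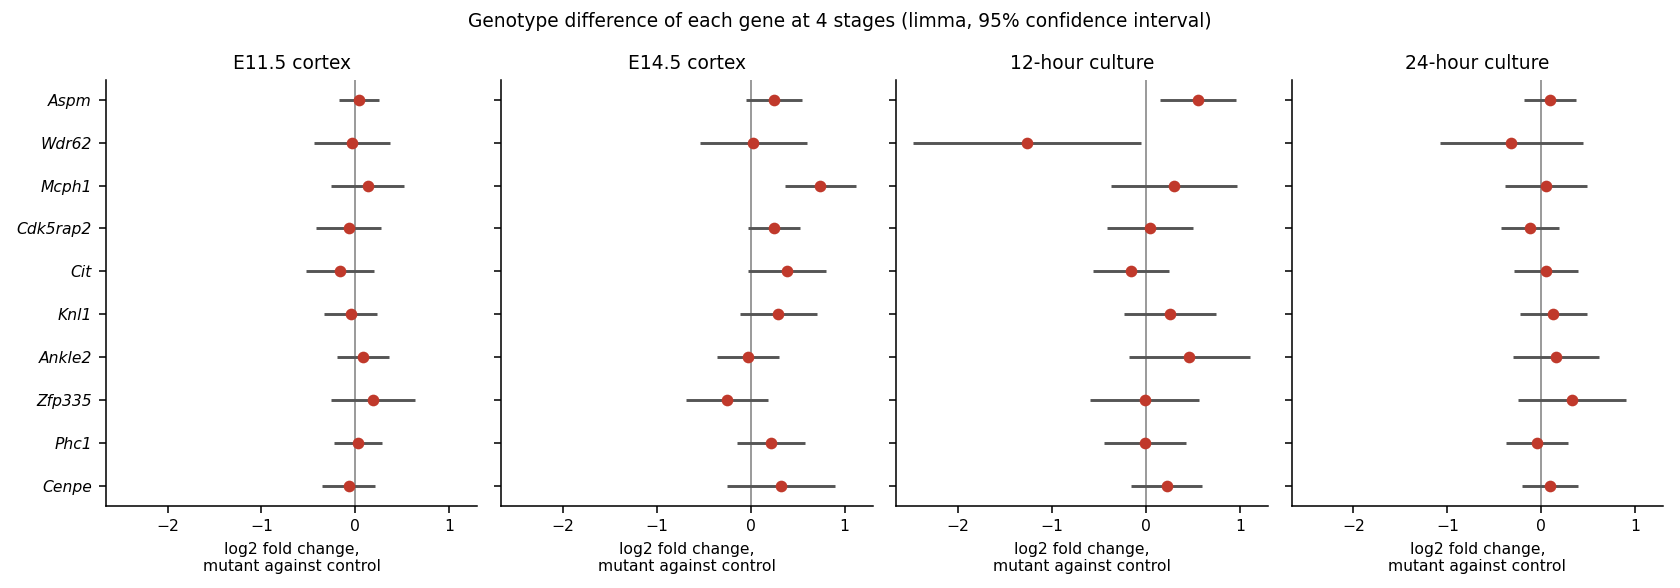
Log2 fold change of mutants against controls for each gene (points) with its 95% confidence interval (lines, limma) at 4 stages. The intervals of *Mcph1* at E14.5 and of *Aspm* and *Wdr62* at 12 hours exclude 0 before adjustment, and no gene passed after it.

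In 12-hour cultures, *Aspm* was at 662.0, 943.9 and 1010 in mutants 1, 2 and 6 and at 599.3, 588.3 and 569.4 in controls 3, 4 and 5. The controls were close together and all mutants above them, mutant 1 by little (log2 fold change 0.55, SE 0.19, limma adjusted p = 0.913, exact permutation p = 0.1). *Wdr62* went the other way, at 29.2, 29.5 and 11.6 in mutants and 80.2, 61.1 and 31.1 in controls, with control 5 next to mutants 1 and 2 (log2 fold change -1.27, SE 0.56, limma adjusted p = 0.913). Leaving out any 1 library gave -1.65 to -0.84 for *Wdr62* and leaving out both libraries rich in *Gm42418* gave -0.75, and none passed. A term for sex, which leaves mutant 6 alone against the all-male controls, gave -2.11. The groups of these 2 genes did not overlap, which held for 11% of all genes. Neither was separated at 24 hours, where *Aspm* was at 0.092 (SE 0.13) and *Wdr62* at -0.32 (SE 0.36).

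The other 8 genes overlapped between genotypes in both cultures. *Zfp335* at 24 hours had mutants both above and below all controls (321.7, 216.6 and 126.6 in mutants, 152.9, 170.2 and 170.0 in controls). Several marker sums also lay apart by genotype at 12 hours. Those of choroid plexus and hem were 4615 to 15875 in mutants and 996.0 to 3688 in controls, those of p53 target genes 4774 to 5417 and 3557 to 4169, those of intermediate progenitors 2016 to 2247 and 1729 to 1848 and those of endothelium 81.0 to 110.2 and 31.1 to 65.8. Of the 6 choroid plexus and hem genes 2 were at 0 in mutants, and the 4 tested were higher in the mean. Of 4 endothelial markers tested 2 were higher and 2 lower. Microglia sums lay apart the other way, at 6.31 to 15.6 in mutants and 17.6 to 44.0 in controls, with 0 of the 6 markers passing the filter. The sums of the genes of G2 and mitosis overlapped, at 14050 to 17626 in mutants and 12194 to 14518 in controls. Their part in the values of *Aspm* and *Wdr62* was not tested. The difference of the genotype effect between cortex and 12-hour culture was largest for *Wdr62* (-1.30, SE 0.62, limma adjusted p = 0.793), followed by *Cit* (-0.55, SE 0.26, limma adjusted p = 0.793), and between the culture times for *Wdr62* (0.95, SE 0.67), followed by *Aspm* (-0.46, SE 0.22), both with a limma adjusted p of nearly 1. By limma 0 of the 10 genes passed any of the 3 tests of such differences, as did 0% of all genes. At an unadjusted p under 0.05 the numbers were 1, 0 and 0 for age, 12-hour culture and culture time, where 7.84%, 5.32% and 2.38% of all genes reached it. EdgeR and DESeq2 called 0 as well.

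The move from E14.5 cortex into culture was compared with genotype as a term. At 12 hours 3 of the 10 genes were higher than in the cortex, *Mcph1*, *Zfp335* and *Phc1*, and *Aspm* was lower, where 14.1% of all genes tested were higher and 16.1% lower. These 4 were also called with the embryo as a replicate block.

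*Mcph1* went from 143.4, 121.4 and 126.1 to 157.9, 292.5 and 203.3 in mutants 1, 2 and 6 and from 75.3, 73.3 and 83.7 to 213.9, 206.7 and 113.9 in controls 3, 4 and 5. It was higher in 6 of 6 embryos, by little in mutant 1 and control 5 (log2 fold change 0.92, SE 0.19, limma adjusted p = 0.00219). *Zfp335* went from 96.0, 129.2 and 82.2 to 157.0, 145.2 and 249.0 in mutants and from 122.3, 130.7 and 108.1 to 160.4, 193.7 and 188.3 in controls. All 6 cultures lay above all 6 cortices, as in 6.66% of all genes (log2 fold change 0.70, SE 0.17, limma adjusted p = 0.00543). *Phc1* went from 562.2 to 861.5 in the cortices to 744.8 to 1190 in the cultures, also higher in 6 of 6 embryos (log2 fold change 0.54, SE 0.14, limma adjusted p = 0.00848). The exact permutation p over the 6 embryos was 0.0312 for all 3 genes, the smallest it can give.

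*Aspm* fell in 5 of 6 embryos, mutant 2 being the exception with 915.3 in cortex and 943.9 in culture (log2 fold change -0.42, SE 0.12, limma adjusted p = 0.0128). *Knl1* was lower in 6 of 6 embryos (369.4 to 658.5 in the cortices, 297.6 to 543.7 in the cultures) without passing (log2 fold change -0.36, SE 0.15, limma adjusted p = 0.0802), and it passed once both libraries with over 30% of the values on *Gm42418* were left out (log2 fold change -0.48, limma adjusted p = 0.0195). *Cenpe* was at -0.25 (SE 0.17), *Wdr62* at -0.12 (SE 0.34), *Ankle2* at -0.040 (SE 0.18), *Cdk5rap2* at 0.083 (SE 0.13) and *Cit* at 0.13 (SE 0.15), and none of these 5 passed.

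**Figure D4:**
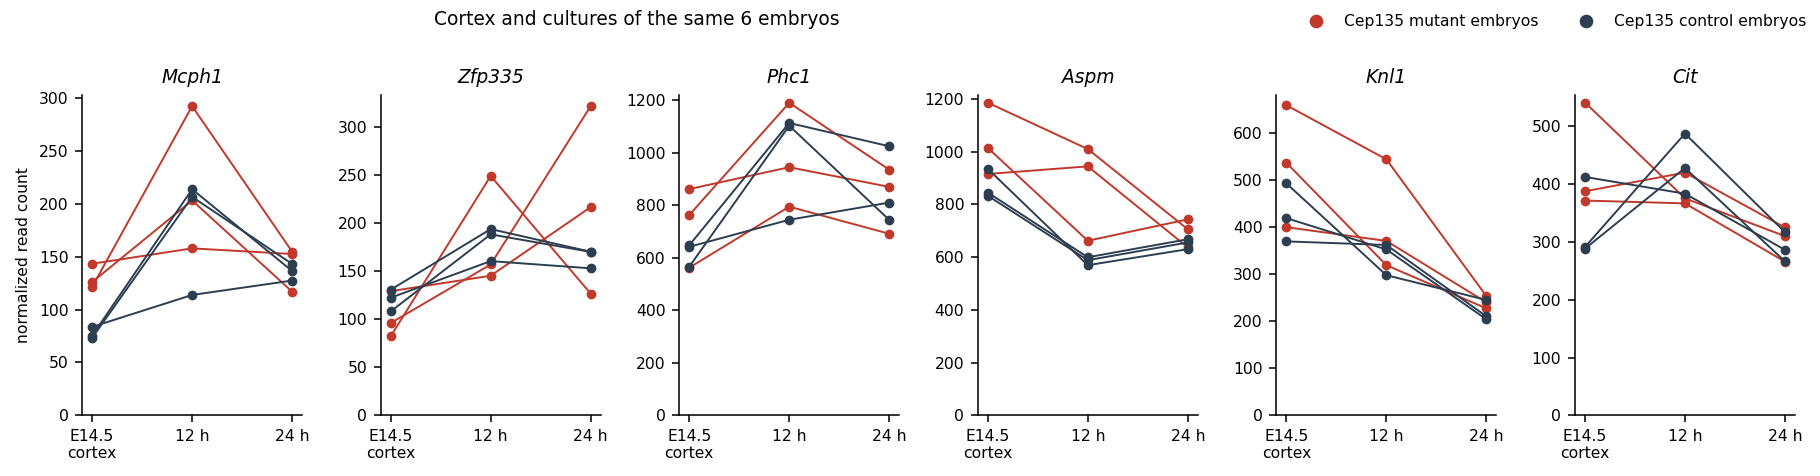
Normalized read count (vertical axis, from 0) of 6 genes in the E14.5 cortex and in the 12-hour and 24-hour cultures of the same 6 embryos, 1 line per embryo, mutants in red and controls in dark blue. *Mcph1*, *Zfp335* and *Phc1* rise in every embryo on the way to 12 hours, and *Knl1* and *Cit* are lower in every embryo at 24 than at 12 hours.

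Partner lists moved only in part. Of 15 kinetochore genes 5 fell, led by *Spc25* (-0.97, SE 0.11), of 12 cytokinesis genes 3 fell, among them *Ect2* (-0.95, SE 0.18), and of 20 genes of G2 and mitosis 11 fell, such as *Cdc20* (-1.08, SE 0.15). In the H3K4 methyltransferase list of *Zfp335*, *Kmt2b* (0.71, SE 0.12), *Kmt2a* (0.72, SE 0.15) and *Ncoa6* (0.47, SE 0.13) were higher and *Dpy30* lower (-0.60, SE 0.14). In the PRC1 list of *Phc1*, *Scmh1* fell (-0.29, SE 0.11). Of 8 condensin genes 2 fell, *Ncaph2* (-0.45, SE 0.11) and *Ncapd2* (-0.31, SE 0.090). Of 12 p53 target genes 9 were higher, led by the cell cycle inhibitor *Cdkn1a* (1.41, SE 0.16).

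Marker transcripts of other cell types differed between cortex and culture. All 6 microglia markers fell from sums of 409.4 to 941.7 to sums of 6.31 to 44.0, all 6 endothelial markers fell from 967.8 to 1105 to 31.1 to 110.2, and all 7 erythroid markers rose from 37774 to 44815 to 68435 to 149731. The neuronal sum lay between 30674 and 43088 in the cortices and between 29085 and 46449 in the 12-hour cultures. The 6 intermediate progenitor markers summed to 2878 to 3257 in the cortices and 1729 to 2247 in the cultures, and 3 of the 6 were called lower. Of the 9 apical progenitor markers 6 were called lower and 1 higher, with a median log2 fold change of -0.92, while their sums overlapped (9667 to 11686 and 8407 to 11750). The part of these shifts in the 4 changes of the members was not tested.

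Between 12 and 24 hours 1 of the 10 genes passed, *Knl1*, which was lower, where 0.142% of all genes tested were lower and 0.15% higher. It went from 318.8, 370.4 and 543.7 to 227.1, 239.9 and 253.2 in mutants 1, 2 and 6 and from 361.8, 352.3 and 297.6 to 210.3, 203.9 and 245.0 in controls 3, 4 and 5. All 24-hour values lay below all 12-hour values, as in 0.434% of all genes, and the log2 fold change was -0.68 (SE 0.13, limma adjusted p = 0.0375). With the embryo as a replicate block the adjusted p was 0.0115. Without any 1 of 9 of the 12 cultures it no longer passed (log2 fold change -0.65 to -0.72, limma adjusted p 0.069 to 0.114), and the 3 exceptions were the 12-hour cultures of mutants 1 and 6 and of control 5. Without both libraries rich in *Gm42418* the log2 fold change was -0.55 (limma adjusted p = 0.0989).

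*Cit* showed the same separation, from 366.6, 419.8 and 375.3 to 265.8, 324.9 and 309.9 in mutants and from 427.9, 487.3 and 383.4 to 266.3, 316.8 and 286.3 in controls (log2 fold change -0.47, SE 0.11, limma adjusted p = 0.0924). It was lower in 6 of 6 embryos and passed with DESeq2 alone (adjusted p = 0.00926). *Cenpe* was lower in 6 of 6 embryos as well (log2 fold change -0.24, SE 0.11, limma adjusted p = 0.489). *Mcph1* was lower in 5 of 6 (log2 fold change -0.46, SE 0.19, limma adjusted p = 0.439) and *Wdr62* higher in 4 of 6 (0.46, SE 0.34, limma adjusted p = 0.712). Of the kinetochore partners of *Knl1*, *Spc25* (-0.61, SE 0.12, limma adjusted p = 0.034) and *Spc24* (-0.92, SE 0.18) fell, and of the genes of G2 and mitosis *Top2a* (-0.75, SE 0.11), *Nusap1* (-0.63, SE 0.10) and *Kif11* (-0.78, SE 0.13) did. The condensin I gene *Ncapg* fell (-0.69, SE 0.14), 1 of 8 on its list, as did *Neurog2* (-0.77, SE 0.15), 1 of 5 intermediate progenitor markers tested, and 3 of 7 erythroid markers, *Hbb-bt* (-1.32, SE 0.15), *Hbb-y* (-0.999, SE 0.19) and *Hbb-bs* (-0.78, SE 0.16). The summed G2 and mitosis value ran from 12194 to 17626 at 12 hours and from 9506 to 12283 at 24 hours.

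Across the 8 group means, *Aspm*, *Cenpe*, *Knl1*, *Cit* and *Ankle2* had Pearson's r of 0.766 to 0.973 for their 10 pairs. With *Zfp335* and *Phc1* they had r of -0.818 to -0.256. These 5 genes were picked by hand, so the ranges are no test of likeness. Of the other genes that fell with age, *Cdk5rap2* had r of 0.586 to 0.821 with the 5. *Wdr62* had 0.092 to 0.539 and *Mcph1* 0.111 to 0.404. All these r values are descriptions over 8 means that share embryos and size factors. The group means spanned 1.91 log2 units in *Knl1*, 1.68 in *Wdr62*, 1.59 in *Cenpe*, 1.46 in *Aspm*, 1.44 in *Mcph1*, 1.25 in *Cit* and 1.03 in *Zfp335*, and under 1 in *Ankle2* (0.718), *Phc1* (0.652) and *Cdk5rap2* (0.612).

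For each gene spanning at least 1, the 3 genes with the most similar profile were read from the whole table. They were *Ncapg*, *Inip* and *Cenpk* for *Knl1* (r of 0.997 to 0.995), *Chtf18*, *Acvr2b* and *Cenpf* for *Cenpe* (0.996 to 0.993), *Rasgrp1*, *Fign* and *Ehd4* for *Aspm* (0.996 to 0.994) and *9430038I01Rik*, *Incenp* and *Ddx11* for *Cit* (0.990 to 0.987). Among them, *Cenpf* and *Cenpk* encode kinetochore or centromere proteins, *Ncapg* a condensin I subunit and *Incenp* a chromosomal passenger. The rest, including all 3 named for *Aspm*, were not sorted by function. *Zfp335* was most like *Eif2b4*, *Gm43598* and *Vps33b* (0.981 to 0.979), *Wdr62* like *Cep164*, *Gm16835* and *Mical1* (0.976 to 0.956), and *Mcph1* like *Zcchc2*, *Atp10a* and *Rrp15* (0.968 to 0.953). *Wdr62* and *Mcph1* had r of 0.006 with each other.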

How the data were processed

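Dorsal telencephalon of 12 embryos and 12 cultures were sequenced. The authors trimmed adapters and polyA tails from stranded 3′ reads, aligned them to GRCm38 with TopHat2 2.0.10 (Bowtie 1.0.0, SAMtools 0.1.19), counted them by strand on GENCODE genes with HTSeq 0.6.1, and deposited 1 table of signal, in which each library's counts are divided by its own size factor. Samples were grouped by their labels, and no column was left out.

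Normalized counts were tested as log2 of the value plus 1 with limma 3.58.1 (R 4.3.3, intensity trend), keeping genes that averaged 10 or more over the compared libraries. P-values were adjusted by Benjamini-Hochberg over all genes kept, with a threshold of 0.05. Fold changes on this scale understate those of low genes. Exact permutation tests were two-sided. Whole reads were recovered by dividing each column by its smallest value (100% of values whole within 0.001) for edgeR 4.0.16 and DESeq2 1.42.0. The alternatives were a pseudocount of 0.1 or 5, filters at 0 or 50 in place of 10, TMM factors, quantile normalization, terms for sex and the *Gm42418* share, the sample code prefix of the titles as a block, 1 fit of 24 libraries, and each library left out. Those for single prefixes and for libraries rich in *Gm42418* were added after seeing the data.

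Cortex and cultures with the same number come from the same embryo by the labels. Their deviations from group means correlated at -0.114 to 0.235 over 18 pairs (median 0.137, 12 above 0.1), and the embryo was a block in an alternative fit. The smallest p was 0.1 for 3 against 3, 0.005 for the 12 cortices and 0.0312 for 6 paired embryos.

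The 10 genes and the lists of partners and markers were chosen with earlier results of these data known. All 10 genes are named in each comparison, list members where they pass or by smallest p, and similar genes by the highest r. Positions are from GENCODE vM21, and promoters from RefSeq. *Trappc14* of the microcephaly list was read under its older symbol. One gene of the lists is not reported here. The steps were tested on simulated data. The labels do not say whether embryos shared a litter.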

Additional observations from a re-analysis of the deposited data

How the results depend on the processing

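The numbers of the 10 genes called were 0 for genotype at each stage, over the 12 cortices and in the 3 tests of differing genotype effects under every alternative run and without any 1 library. For age the number was 7 or 8, *Ankle2* being lost with all 24 libraries in one fit (adjusted p = 0.0774) and *Cdk5rap2* with prefix TBI189 alone, and for the 12-hour culture against cortex 4 or 5, *Knl1* being added with quantile normalization (-0.41), all 24 libraries in one fit and without both *Gm42418*-rich libraries. For 24 against 12 hours it was 2 with DESeq2, 0 without both *Gm42418*-rich libraries, and between 0 and 1 with 1 library left out.

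With the embryo as a replicate block the numbers were 4, 1, 0 and 0 in the culture comparisons and their interactions, and the pairing changed no call of a member. Leaving out 1 library reversed small differences of *Cit* and *Zfp335* by genotype at E11.5 (ranges -0.32 to 0.032 and -0.0077 to 0.37), *Mcph1* by genotype at 24 hours (-0.021 to 0.18), *Zfp335* by age (-0.080 to 0.12) and *Ankle2* and *Wdr62* at 12 hours (-0.15 to 0.078 and -0.32 to 0.14).

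Other reversals, all in differences that did not pass, were by a term for the *Gm42418* share for genotype (*Cit* 0.17 and *Zfp335* -0.16 at E11.5, *Mcph1* -0.15 at 24 hours), by prefix TBI189 alone for age (*Zfp335* -0.21), and at 12 hours against cortex by quantile normalization (*Wdr62* 0.13, *Cdk5rap2* -0.0090), edgeR and DESeq2 (*Ankle2* 0.021 and 0.015) and leaving out both *Gm42418*-rich libraries (*Wdr62* 0.045). At 24 hours a term for sex, which leaves mutant 6 alone against the all-male controls, also gave reversed values (*Mcph1* -0.21, *Zfp335* -0.37). The causes were not tested. With 3 embryos a group, the width of the 95% intervals, which are not adjusted for the number of genes, gives the precision of each genotype difference.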
